A study of Mus musculus with 2 samples.

Results

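Neurexins, neuroligins and leucine-rich repeat transmembrane neuronal proteins (LRRTMs) are adhesion molecules that join the presynaptic to the postsynaptic membrane. The genes described here are Nrxn2, Nrxn3, Nlgn1, Nlgn2, Nlgn3, Lrrtm1, Lrrtm2, Lrrtm3 and Lrrtm4, 9 of the 55536 annotated genes. They were taken by name, with earlier results of these data known. They were measured by total RNA sequencing of hippocampus from 2 female adults of B6CASTF1/J, F1 hybrids of a C57BL/6J and a CAST/EiJ parent that were 8 to 10 months old, with 1 library per animal. Per the labels, animal 1 is biological replicate 1 and animal 5 is biological replicate 2, 300 ng of RNA went into each library along with ERCC spike-ins, and the tissue term is a layer of the hippocampus, without saying which layer. Both samples also carry the same donor identifier, so that the SDs and ratios given here rest on reading the animal numbers as 2 animals. No treatment or genotype was compared and the mice form 1 group, so the values describe levels, transcript forms and the spread between 2 animals. Reads of the 2 parental alleles were not separated.

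Neurexins sit mainly on the presynaptic side. Each neurexin gene makes long alpha and short beta proteins from separate promoters, and alternative splicing at a small set of sites decides which partners the protein binds. Neuroligins and LRRTMs are postsynaptic ligands that compete for the last extracellular domain that alpha and beta neurexins share. Neuroligin 1 is known mainly from excitatory synapses, neuroligin 2 from inhibitory synapses and neuroligin 3 from both. LRRTM1 and LRRTM2 bind neurexins that lack the insert at splice site 4, while LRRTM3 and LRRTM4 also bind heparan sulphate proteoglycans. In the hippocampus LRRTM4 is known from granule cells of the dentate gyrus.

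The inserts on which this code rests are shown first, because their shares are the main transcript result. All sequences were read on the gene's strand, 5′ to 3′, on mm10 with GENCODE M21. The exon of 90 nucleotides (nt) at the fourth canonical splice site is shown for Nrxn3, where it lies at chr12:90199147-90199236 (plus strand). No bases are marked in it.
Nrxn3 splice site 4 exon: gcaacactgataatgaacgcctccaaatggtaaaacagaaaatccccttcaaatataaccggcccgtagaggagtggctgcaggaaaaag

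The neuroligins carry their insert at splice site A, inside the coding sequence of the extracellular esterase-like domain. It lies at chr3:25920178-25920237 (minus strand) in Nlgn1 and at chr11:69830563-69830613 (minus strand) in Nlgn2. Nlgn3 has 2 such exons, cassette 1 at chrX:101303072-101303131 and cassette 2 at chrX:101307075-101307134 (plus strand). Cassette 2 of Nlgn3 matched the Nlgn1 insert at 43 of 60 positions (71.7%), while cassette 1 matched it at 16 of 60 (26.7%) and the Nlgn3 exons matched each other at 19 of 60 (31.7%). Nlgn1 also has an alternative exon end of 27 nt, known as the splice site B insert, at chr3:25439865-25439891 (minus strand). No bases are marked in these sequences.
Nlgn1 site A: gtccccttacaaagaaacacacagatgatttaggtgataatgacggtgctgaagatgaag
Nlgn2 site A: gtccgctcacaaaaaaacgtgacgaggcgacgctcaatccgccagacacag
Nlgn3 cassette 1: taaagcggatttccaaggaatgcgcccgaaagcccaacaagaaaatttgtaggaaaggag
Nlgn3 cassette 2: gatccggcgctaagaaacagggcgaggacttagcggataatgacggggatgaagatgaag
Nlgn1 site B: gtaaccgttggagcaattcaaccaaag

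All 9 genes were detected, at a TPM (a level per transcript length, scaled to a fixed total) of at least 1 in both animals, against 59.1% of the 22015 nuclear protein-coding genes. The library of replicate 1 held 34208349 expected counts and that of replicate 2 held 28417193. In bulk tissue, fewer cells of a type and less RNA per cell cannot be told apart, and levels here are averages over all cells of the sample. Markers of dentate granule cells, CA1 and CA3 pyramidal cells, interneurons, astrocytes, oligodendrocytes and microglia were all detected. The lowest of them, the CA3 marker Iyd, was at 2.67 TPM, and detection alone does not show that each cell type was present. The animals differed in 2 other marker lists. The 5 choroid plexus markers summed to 29.6 TPM in replicate 1 and 640 TPM in replicate 2, with 5 of 5 at least 2-fold higher, where 0.589% of all genes tested were. The 5 immediate early genes, which neurons switch on with activity, summed to 193 and 75.1 TPM, with 4 of 5 at least 2-fold lower, where 0.513% of all genes were. The part of either difference in the values below was not tested.

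Neurexin mRNA stood highest. Nrxn2, on chromosome 19 at 6418731 to 6544169 (plus strand), had a level of 168.49 TPM in replicate 1 and of 195.35 TPM in replicate 2, or 182 ± 19.0 TPM (SD, n = 2). That level exceeded the level of 96.8% of the detected protein-coding genes. Nrxn3, on chromosome 12 at 88722876 to 90334935 (plus strand), spans 1612 kb and was at 91.99 and 107.89 TPM, or 99.9 ± 11.2 TPM. Nrxn2 thus stood 1.82-fold above Nrxn3, a gap of 82.0 TPM that was wider than the SD of either gene and was seen in each animal. Of the summed TPM of the 2 neurexins, Nrxn2 held 64.7% in replicate 1 and 64.4% in replicate 2, while both levels were higher in replicate 2.

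The 3 neuroligins were closer together. Nlgn2 (chromosome 11, 69823122 to 69837784, minus strand) was at 91.64 and 105.64 TPM, or 98.6 ± 9.90 TPM, and did not stand apart from Nrxn3, with a gap of 1.30 TPM. Nlgn3 (chromosome X, 101299168 to 101325963, plus strand) was at 83.21 and 79.97 TPM, or 81.6 ± 2.29 TPM, the smallest relative spread of the 9 genes with an SD of 2.81% of the mean. Nlgn1 (chromosome 3, 25426215 to 26332460, minus strand), a gene of 906 kb, was at 49.23 and 54.21 TPM, or 51.7 ± 3.52 TPM. The steps from Nlgn2 to Nlgn3, of 17.1 TPM, and from Nlgn3 to Nlgn1, of 29.9 TPM, both exceeded the SDs and held in both animals. By share of the neuroligin TPM, Nlgn2 held 42.5 ± 2.23%, Nlgn3 35.2 ± 2.68% and Nlgn1 22.3 ± 0.449%. Nlgn2 stood above Nlgn3 and Nlgn3 above Nlgn1 in each animal.

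LRRTM mRNA was lower than that of either family, at a summed 106 ± 0.693 TPM against 232 ± 11.1 TPM for the neuroligins and 282 ± 30.2 TPM for the neurexins. Lrrtm1 (chromosome 6, 77242689 to 77257791, plus strand) led at 45.63 and 41.47 TPM, or 43.5 ± 2.94 TPM, which is 8.17 TPM below Nlgn1. Lrrtm4 (chromosome 6, 80018877 to 80810143, plus strand), a gene of 791 kb, was at 23.28 and 32.15 TPM, or 27.7 ± 6.27 TPM. Its SD of 22.6% of the mean was the largest of the 9 genes. Lrrtm2 (chromosome 18, 35209003 to 35215024, minus strand), the shortest gene at 6.02 kb, was at 23.78 and 20.01 TPM, or 21.9 ± 2.67 TPM. Lrrtm2 stood above Lrrtm4 in replicate 1 and 12.1 TPM below it in replicate 2, so these neighbours did not stand apart. Lrrtm3 (chromosome 10, 63928472 to 64090277, minus strand) was lowest at 13.32 and 11.4 TPM, or 12.4 ± 1.36 TPM, above the level of 39.1% of the detected protein-coding genes.

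**Figure D1:**
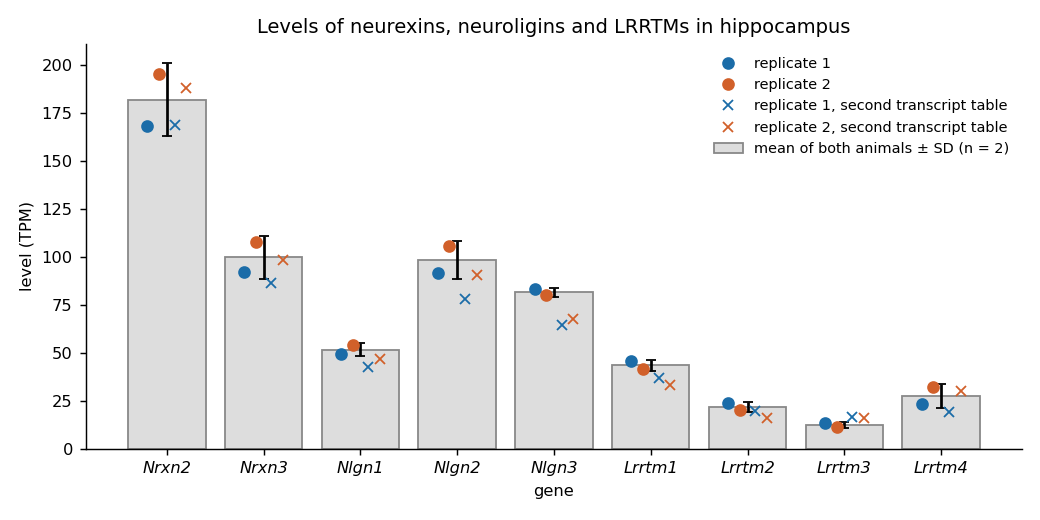
Levels in TPM of the 9 genes. Grey bars are the mean of both animals with the SD (n = 2), filled circles the gene table and crosses the second transcript table, with replicate 1 in blue and replicate 2 in orange. Nrxn2 stands highest at 182 TPM and Lrrtm3 lowest at 12.4 TPM, and the second table puts 8 of the 9 genes lower.

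Ratios between animals were formed from expected counts after TMM scaling, as replicate 2 over replicate 1. Of the 9 genes, 0 differed at least 2-fold (an absolute log2 ratio of 1 or more, on average 50 counts or more, and a 95% counting interval without a ratio of 1), where 1.10% of the 14434 genes tested did, 0.589% higher and 0.513% lower. Smaller differences were common. The counting interval excluded a ratio of 1 for 8 of the 9 genes, against 44.3% of all genes tested and 53.5% of the 8187 with a mean count of at least 500, which all 9 genes reach. Higher in replicate 2 were 5 of the 9, where 18.7% of all genes were, and lower were 3 of the 9, where 25.6% were. These intervals cover counting error only and compare 2 libraries, and nothing particular to the 9 genes is read from the counts. The median log2 ratio of the 9 was 0.17, beside -0.02 over all genes tested, and the median size was 0.19 beside 0.14.

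Both neurexins, Nlgn1, Nlgn2 and Lrrtm4 were higher in replicate 2. The log2 ratio was 0.17 (interval 0.13 to 0.21) for Nrxn2 from 11716 and 11016 counts, and 0.22 (0.18 to 0.26) for Nrxn3 from 9600 and 9352 counts. It was 0.17 (0.11 to 0.23) for Nlgn1 and 0.19 (0.15 to 0.23) for Nlgn2. Nlgn3, at -0.04 (-0.08 to 0.01), had the one interval that held a ratio of 1. Lrrtm1 at -0.10 (-0.19 to -0.01), Lrrtm2 at -0.21 (-0.30 to -0.12) and Lrrtm3 at -0.23 (-0.39 to -0.08) were lower in replicate 2. Among the LRRTMs, Lrrtm4 was the exception. It rested on 1571 and 1690 counts and was 1.29-fold higher, a log2 ratio of 0.36 (0.26 to 0.46). Scaling by the spike-ins in place of TMM moved the median of all genes tested to -0.26 and left 1 of the 9 genes, Lrrtm4, above 0. Under either scaling 5 of 9 lay above the median of all genes. That was fixed in advance, because a change of scaling shifts every gene alike. The signs of Nrxn2, Nrxn3, Nlgn1 and Nlgn2 are therefore relative to the other genes.

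**Figure D2:**
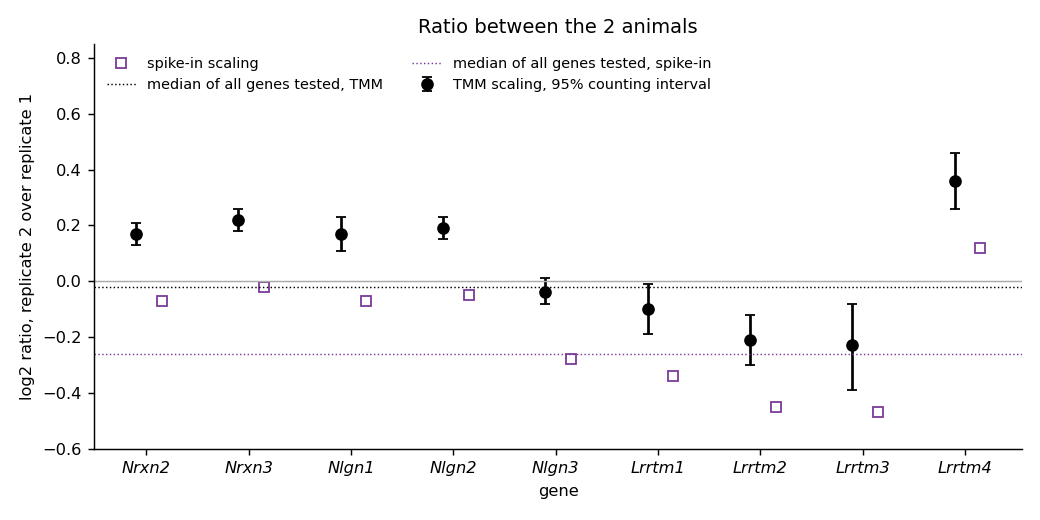
Log2 ratio of replicate 2 over replicate 1 for each gene. Black circles use TMM scaling with 95% counting intervals, purple squares use spike-in scaling, and dotted lines are the medians of all genes tested at -0.02 and -0.26. Lrrtm4 stands highest under both scalings, while 4 genes above 0 under TMM lie below 0 with the spike-ins.

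Dentate granule cell markers moved unevenly beside Lrrtm4. C1ql2, a secreted synaptic protein of granule cells, was at 34.2 and 46.14 TPM, a log2 ratio of 0.43 (0.33 to 0.54). Dsp, the desmosomal protein desmoplakin, was at 3.7 and 4.95 TPM, a log2 ratio of 0.41 (0.26 to 0.57). Prox1, the transcription factor that defines granule cells, was at 35.14 and 33.64 TPM, a log2 ratio of -0.06 (-0.12 to 0.00). The list summed to 73.0 TPM in replicate 1 and 84.7 TPM in replicate 2. By the counting interval 2 of 3 markers were higher, where 18.7% of all genes were, and 0 of 3 lower, where 25.6% were. Their part in the Lrrtm4 difference was not tested. Among CA3 markers the log2 ratio was 0.43 for Bok, 0.80 for Iyd and -0.17 for Cpne4, and among CA1 markers it was 0.57 for Wfs1, -0.05 for Mpped1 and -0.21 for Fibcd1.

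The Lrrtm4 locus also holds 8 annotated genes on its own strand of the class TEC, which marks unspliced transcribed stretches to be experimentally tested. They had 10 to 155 counts each, 481 in replicate 1 and 558 in replicate 2 in sum, and the ratio of the sums was 0.47 on the log2 scale (0.29 to 0.65). The median of all genes tested was -0.02. Single log2 ratios of the 8 ranged from -0.06 to 0.96, and some of the 8 lie under the mean of 50 counts required for testing. In sum and under TMM scaling, the stretches within the Lrrtm4 gene were thus higher in replicate 2, as was Lrrtm4 itself. Whether the counts of these stretches come from unspliced Lrrtm4 RNA was not tested.

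Lrrtm1, Lrrtm2 and Lrrtm3 each lie inside an alpha-catenin gene on the opposite strand. Alpha-catenins tie cadherin adhesion complexes to actin. Ctnna2, the host of Lrrtm1, was at 39.8 ± 1.12 TPM, beside 43.5 TPM for Lrrtm1. Ctnna1, the host of Lrrtm2, was at 21.1 ± 0.856 TPM, beside 21.9 TPM for Lrrtm2. Ctnna3, the host of Lrrtm3, was at 1.29 ± 0.240 TPM, beside 12.4 TPM. The first 2 pairs stood at like levels and the last did not. The log2 ratio between animals was 0.05 (-0.03 to 0.12) for Ctnna2, -0.15 (-0.27 to -0.03) for Ctnna1 and -0.00 (-0.48 to 0.47) for Ctnna3, which had 84 and 70 counts. Exons of host and guest shared 0 bp for Lrrtm1, 95 bp (1.58% of its exonic length) for Lrrtm2 and 0 bp for Lrrtm3. The sources used here do not give whether counting used strand, so those 95 bp cannot be assigned to 1 of the genes. Nlgn3 also shares its strand with an overlapping gene, Gm21986, at 1.93 and 1.3 TPM.

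The alpha and beta forms were weighted differently in the 2 neurexin genes. Transcripts were classed by where the annotated coding sequence starts, into long (alpha), short (beta, starting in a first exon inside the long form's introns), an intermediate class for Nrxn3, and a rest of transcripts that are not annotated as complete protein-coding ones. The rest takes in incomplete fragments, noncoding types and targets of nonsense-mediated decay, the last of which carry an annotated coding sequence. Among complete coding transcripts of Nrxn2, the short class held 60.8 ± 0.455% of the TPM and the long class 39.2 ± 0.455%. Among those of Nrxn3 the long class held 77.1 ± 0.0850%, the short class 12.9 ± 2.65% and the intermediate class 10.0 ± 2.57%. The short class was at 74.3 and 81.9 TPM in Nrxn2 and at 6.80 and 5.79 TPM in Nrxn3, while the long class was at 47.3 and 53.5 TPM in Nrxn2 and at 35.4 and 40.5 TPM in Nrxn3. The excess of Nrxn2 over Nrxn3 was therefore mostly one of short transcripts in both animals. In the second transcript table the short class held 57.2 ± 1.43% of the coding TPM of Nrxn2 and 14.1 ± 2.27% of that of Nrxn3.

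Much of the TPM went to this rest, 29.3 ± 2.05% in Nrxn2 and 50.6 ± 0.958% in Nrxn3. By counts, which favour long transcripts, it held 6.51 ± 0.396% and 31.5 ± 0.469%. In Nrxn3 the decay targets Nrxn3-213 and Nrxn3-208, both long, held 9.57 ± 1.35% and 8.36 ± 1.36% of the TPM and 10.6% and 11.6% of the counts. In Nrxn2 one short RNA of this kind stood out, Nrxn2-213, a processed transcript of 576 nt with 15.9 ± 0.595% of the TPM and 2.32% of the counts. The leading Nrxn2 transcript was the beta form Nrxn2-202 at 74.35 and 81.51 TPM, or 42.9 ± 1.70% of the gene, followed by the alpha forms Nrxn2-204 at 14.5 ± 0.700% and Nrxn2-201 at 11.9 ± 0.492%. In Nrxn3 the alpha form Nrxn3-205 led at 35.44 and 40.5 TPM, or 38.0 ± 0.696%. The 2-exon Nrxn3-211 and the retained-intron Nrxn3-204 followed at 13.5 ± 0.492% and 12.3 ± 0.0842%, both without a coding sequence.

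**Figure D3:**
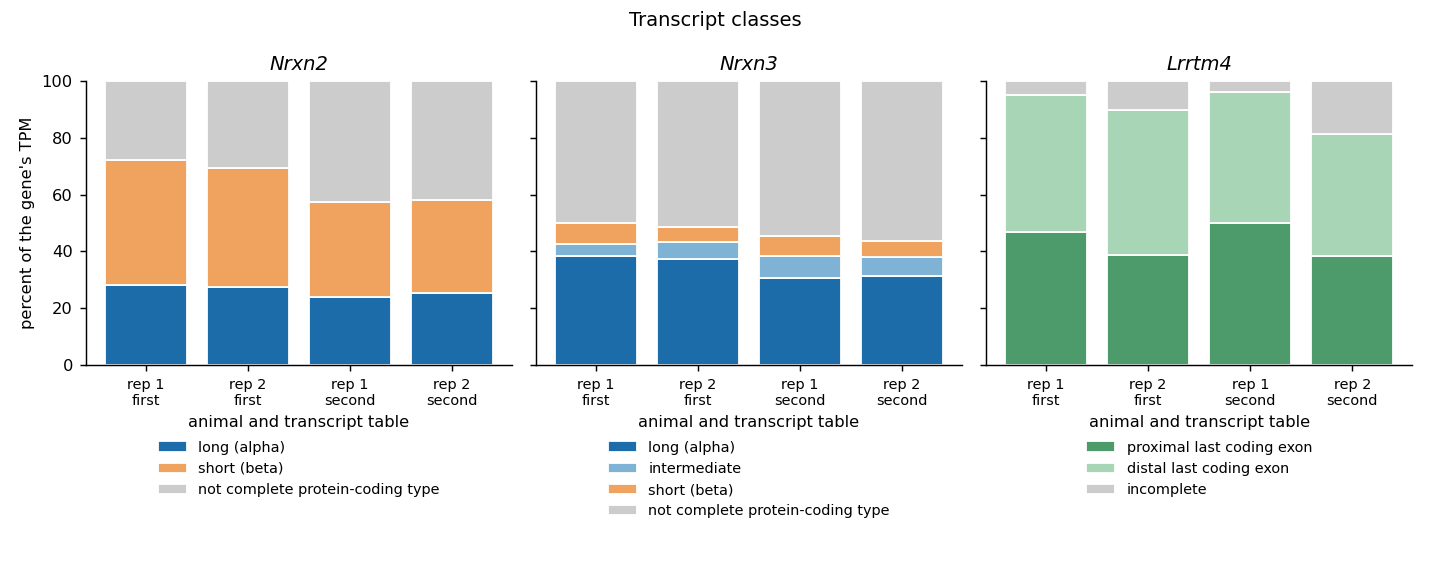
Transcript classes of Nrxn2, Nrxn3 and Lrrtm4 as percent of each gene's TPM, for each animal in the first and the second transcript table. The short class (orange) holds 43.0% of Nrxn2 and 6.38% of Nrxn3 in the first table, and grey marks transcripts that are not complete protein-coding ones.

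Separate starts separate the Nrxn3 classes, so the bases before them are shown. RefSeq on GRCm38.p6 has a promoter entry for 6 of the 9 genes (Nlgn1, Nlgn2, Nrxn3, Lrrtm1, Lrrtm3 and Lrrtm4) and 3 entries for Nrxn3. The start of the alpha transcript Nrxn3-205, at position 88794504, is also the start of an internal exon in 5 other annotated Nrxn3 transcripts, so it is not shown as a promoter. The second start, at 88953390, belongs to Nrxn3-211 and, within 20 bases, to the intermediate coding Nrxn3-201, at 16.5 and 20.4 TPM together. The third start, at 89812483, belongs to the beta transcripts Nrxn3-202 and Nrxn3-203, at 6.80 and 5.79 TPM. Capitals mark CG dinucleotides in the 250 bases before each start, at chr12:88953140-88953389 and chr12:89812233-89812482 (plus strand).
Nrxn3 second start: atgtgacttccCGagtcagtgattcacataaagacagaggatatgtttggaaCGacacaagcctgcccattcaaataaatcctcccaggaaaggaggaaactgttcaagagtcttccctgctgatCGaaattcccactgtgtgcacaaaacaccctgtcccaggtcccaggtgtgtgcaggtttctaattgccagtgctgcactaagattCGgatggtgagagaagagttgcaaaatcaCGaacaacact
Nrxn3 beta start: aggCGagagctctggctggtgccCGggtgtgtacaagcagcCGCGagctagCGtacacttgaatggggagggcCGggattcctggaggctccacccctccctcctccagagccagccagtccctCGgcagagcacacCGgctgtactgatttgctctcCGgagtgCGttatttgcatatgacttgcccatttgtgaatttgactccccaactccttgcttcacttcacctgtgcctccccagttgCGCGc

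The window before the beta start held 12 CG dinucleotides, a number reached by 33.5% of the 32851 promoter windows of the same length, and that before the second start held 5, reached by 55.6%. The median window held 6. TATAAA was in the 50 bases before neither start, on the gene's strand, and was found there in 2.63% of all windows.

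Over all annotated transcripts that span it, decay targets among them, inclusion of the splice site 4 exon was close in the neurexins. Of the TPM of transcripts that span the exon, those that contain it held 79.3% in replicate 1 and 79.6% in replicate 2 for Nrxn2, and 78.5% and 78.6% for Nrxn3. The second transcript table gave 78.5 ± 1.40% and 79.7 ± 0.709%. The exon shares come from whole annotated transcripts, so they depend on which combinations of exons the annotation holds. In Nrxn2, the beta form Nrxn2-202 contains the exon and the alpha form Nrxn2-204 lacks it. In Nrxn3, the alpha form Nrxn3-205 contains it, while the beta pair splits, with Nrxn3-202 containing and Nrxn3-203 lacking it. The Nrxn3 share also counts decay targets, Nrxn3-213 without the exon at 7.92 and 11.35 TPM and Nrxn3-208 with it at 8.58 and 7.98 TPM. Nrxn3-203 is the only complete coding Nrxn3 transcript that skips the exon. All Nrxn2 transcripts that span it are complete coding ones, so the closeness was not shown for coding transcripts alone. Nrxn3-203 was at 5.53 and 4.06 TPM in the first table, beside 1.27 and 1.73 TPM for Nrxn3-202. In the second table Nrxn3-203 held 4.41% and 1.58% of the gene and Nrxn3-202 2.70% and 3.84%, so their order turned in replicate 2 and the main beta form was not settled.

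The other neurexin cassettes ranged more widely. The rule found 6 cassettes in each neurexin gene, of 20 over the 9 genes, and of 19 coding ones 16 had a length that is a multiple of 3 and so keeps the reading frame. Beside the splice site 4 exon, the highest Nrxn2 share was 84.2 ± 5.54%, for an exon of 30 nt. None of the annotated transcripts that skip this exon is a complete coding one. The Nrxn2 cassettes of 24 and 45 nt start at the same base and are alternative ends of 1 exon, each counted against the transcripts that skip both. Their shares of 50.3 ± 3.56% and 7.45 ± 3.12% therefore have different denominators. In Nrxn3 the coding shares ran from 23.8 ± 3.96% for an exon of 27 nt to 87.2 ± 1.80% for one of 18 nt. Skipping of the 18-nt exon rests on the decay target Nrxn3-213 alone. The remaining Nrxn2 cassettes, of 72 and 27 nt, were near the middle at 53.3 ± 4.13% and 47.9 ± 1.62%.

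Neuroligin inserts differed from gene to gene. The site A insert was in 45.7% and 47.0% of the Nlgn1 TPM that spans it, or 46.3 ± 0.931%. The same transcripts, Nlgn1-201 and Nlgn1-205, carry the 27-nt site B insert, so the site A and site B inserts cannot be counted apart. In Nlgn2 the insert was in 97.0% and 97.8%, and the 1 annotated transcript that skips it, Nlgn2-203, is an incomplete fragment. In Nlgn3 cassette 1 was in 3.20% and 4.23%, and cassette 2, the one like the Nlgn1 insert, in 52.3% and 53.3%. Skipping of cassette 2 also rests on a single incomplete fragment, Nlgn3-203, which held 45.7 ± 0.671% of the TPM but 15.7 ± 0.371% of the counts of Nlgn3. The second table gave 48.4% for Nlgn1, 90.5% for Nlgn2, and 6.61% and 60.0% for the Nlgn3 cassettes, in the same order.

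**Figure D4:**
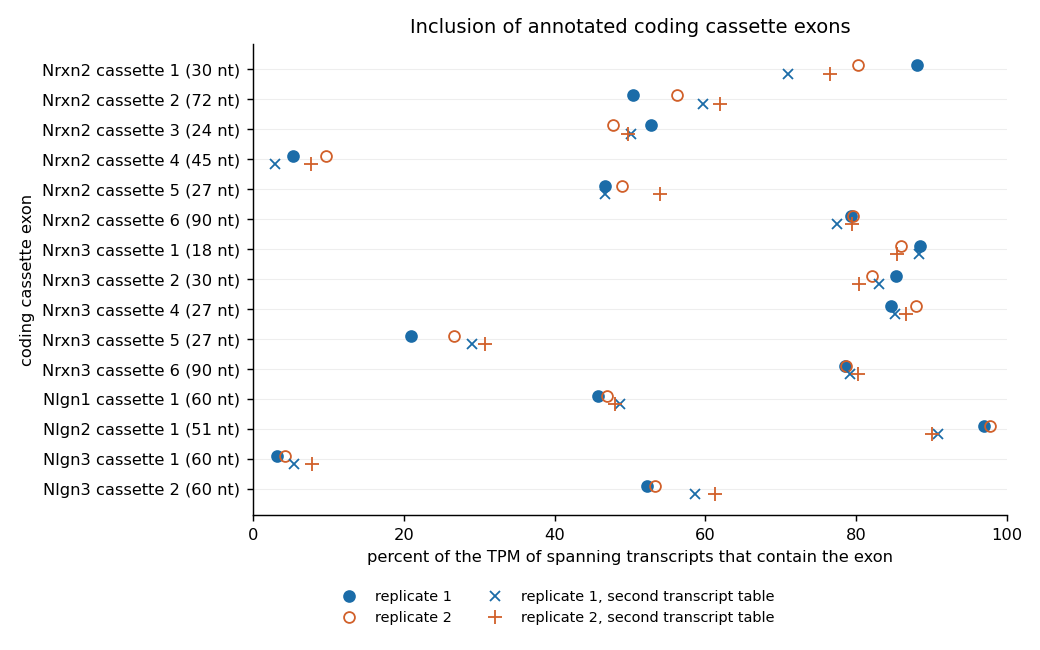
Share of the TPM of spanning transcripts that contain each coding cassette exon of the neurexins and neuroligins, in percent. Filled circles are replicate 1 and open circles replicate 2 in the first transcript table, and crosses and plus signs the same animals in the second. The 90-nt exons of Nrxn2 and Nrxn3 lie between 77.5% and 80.2% in every library and table.

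The neuroligin transcripts otherwise kept their order between animals. Nlgn1-203, without the inserts, led by TPM at 42.3 ± 1.51%, followed by Nlgn1-201 at 23.7 ± 0.282%, the retained-intron Nlgn1-204 at 20.5 ± 0.508% and Nlgn1-205 at 13.2 ± 0.787%. By counts the longest of them, Nlgn1-205 of 11807 nt, led with 34.6%. Nlgn2 has 2 complete transcripts with the same coding length of 2508 nt and different starts. Nlgn2-202, from the upstream start, held 75.0% in replicate 1 and 68.1% in replicate 2, and Nlgn2-201 18.5% and 25.2%. The second table had 71.6% and 64.0% for Nlgn2-202 and 19.2% and 26.2% for Nlgn2-201. As the reads were assigned, the Nlgn2 difference between animals sat mainly in Nlgn2-201, at 16.99 and 26.6 TPM (log2 ratio 0.65, interval 0.56 to 0.74). Nlgn2-202 was at 68.73 and 71.89 TPM (0.06, interval 0.02 to 0.11). These intervals leave out the error of assigning reads to transcripts. Its posterior SD for Nlgn2-201 was 181.48 and 212.34 counts, on 1756 and 2297 counts. Nlgn3 was led by Nlgn3-201 at 47.6 ± 0.0379%.

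Lrrtm1 had the largest difference in transcript mix between animals. Its leading transcripts have the same coding length of 1566 nt. Lrrtm1-202 held 70.3% of the TPM in replicate 1 and 50.4% in replicate 2. Lrrtm1-201, which has an extra exon after the stop codon and is annotated as a target of nonsense-mediated decay, the pathway that removes mRNAs with a junction far behind the stop, held 10.7% and 27.8%. It had 295 and 581 counts, a log2 ratio of 1.23 (1.03 to 1.44), while the gene as a whole was at -0.10. That interval leaves out the error of read assignment, with a posterior SD of 39.42 and 50.54 counts. Lrrtm1-203 held 19.0% and 21.8%. The second table gave 11.6% and 27.0% for Lrrtm1-201 and 63.5% and 46.8% for Lrrtm1-202.

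Lrrtm3 was the other gene with a large shift. Lrrtm3-201, its 1 complete coding transcript, held 53.7% and 43.9%, and the retained-intron Lrrtm3-204 35.1% and 51.5%. In the second table those were 33.8% and 25.7%, and 23.3% and 25.7%, with Lrrtm3-202 and Lrrtm3-203, 2 short noncoding forms with at most 44 counts there, taking 29.0 ± 3.63% and 16.7 ± 7.65%. Coding Lrrtm3 mRNA was therefore at 7.15 and 5.0 TPM in the first table. A largest change in any transcript's share of at least 10 percentage points was seen in 2 of the 9 genes in the first table (Lrrtm1 at 19.9 and Lrrtm3 at 16.4 points), where 29.4% of the 7456 genes with several transcripts and enough counts showed one. In the second table it was seen in Lrrtm1 at 16.8, Lrrtm3 at 10.8 and Lrrtm4 at 12.3 points, where 33.2% of genes showed one, and 19.1% of genes showed one in both tables. These counts do not set the 9 genes apart from the background.

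Lrrtm2 had 1 main form, Lrrtm2-201, at 78.8% and 82.3%, with the shorter coding form Lrrtm2-203 at 13.8% and 9.85%. Lrrtm4 has alternative last coding exons. Transcripts ending in the proximal one held 10.9 and 12.5 TPM, and those ending in the distal one 11.2 and 16.4 TPM. Of complete coding TPM the distal class was 50.7% and 56.8% and the proximal class 49.3% and 43.2%, so the distal class was higher in each animal. In the second table the distal class was 48.0% and 52.7%, below the proximal class in replicate 1 and above it in replicate 2. The leading forms were Lrrtm4-208, distal, at 40.9 ± 1.58%, Lrrtm4-206, proximal, at 23.8 ± 0.493%, and Lrrtm4-201, proximal, at 14.5 ± 2.20%. Both classes were higher in replicate 2.

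The distal coding ends of Lrrtm3 and Lrrtm4 encode the last stretch of the cytoplasmic tail and are shown for this choice of ends, with the stop codon in capitals. They lie at chr10:63930058-63930267 (minus strand) in Lrrtm3 and at chr6:80808968-80809189 (plus strand) in Lrrtm4.
Lrrtm3 distal coding exon: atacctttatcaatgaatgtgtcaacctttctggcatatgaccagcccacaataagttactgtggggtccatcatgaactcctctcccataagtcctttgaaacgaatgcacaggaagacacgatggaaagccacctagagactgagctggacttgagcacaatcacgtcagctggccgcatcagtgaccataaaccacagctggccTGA
Lrrtm4 distal coding exon: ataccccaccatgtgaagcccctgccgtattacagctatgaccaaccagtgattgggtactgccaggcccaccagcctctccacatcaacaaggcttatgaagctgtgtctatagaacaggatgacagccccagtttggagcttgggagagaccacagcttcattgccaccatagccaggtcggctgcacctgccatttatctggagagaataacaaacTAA

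Types not annotated as protein-coding (retained introns, processed transcripts and targets of nonsense-mediated decay) took unequal shares of the 9 genes. They held 51.2 ± 6.94% of the TPM of Lrrtm3 and 50.6 ± 0.958% of that of Nrxn3, against a median of 12.3% over 13010 detected protein-coding genes. In Nrxn2, Nlgn1 and Lrrtm1 they held 25.3%, 20.5% and 19.3%. In Lrrtm2, Nlgn2 and Nlgn3 they held 7.60%, 4.12% and 3.14%. All 8 annotated transcripts of Lrrtm4 are of the protein-coding type, so its share of 0% is fixed by the annotation. The second table gave 70.3 ± 5.73% for Lrrtm3, 55.5 ± 1.35% for Nrxn3, 34.3 ± 1.19% for Nrxn2, 11.9 ± 5.56% for Nlgn3 and 0% for Nlgn2, beside a median of 15.7%. Lrrtm3 and Nrxn3 were highest of the 9 genes in both tables.

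The partners of these proteins were present in this tissue at levels from under 1 to 420 TPM. Of 69 genes on 8 lists, 65 were detected in both animals, and 0 of the 65 tested differed at least 2-fold, where 1.10% of all genes did. Extracellular neurexin ligands were detected for 17 of 20, with a median of 26.8 TPM. Calsyntenin 1 (Clstn1) led at 400 ± 10.3 TPM and the latrophilin Adgrl1, an adhesion receptor, followed at 160 ± 15.6 TPM, while the cerebellin Cbln3 was lowest at 0.170 ± 0.0424 TPM. By the counting interval under TMM scaling, 9 of the 17 tested were higher and 2 lower in replicate 2, where 18.7% and 25.6% of all genes were. Higher and lower were 2 and 1 of 6 intracellular partners, 2 and 2 of 7 neuroligin regulators and scaffolds, and 2 and 0 of 7 LRRTM partners. They were 0 and 1 of 3 alpha-catenins, 1 and 2 of 5 splicing regulators, 0 and 2 of 3 proteases, and 7 and 1 of 17 other organisers. Intracellular neurexin partners were detected for 6 of 6, from the presynaptic adaptor Apba2 (Mint2) at 118 ± 0.304 TPM and Lin7b at 67.8 ± 5.99 TPM to Lin7a at 16.2 ± 1.90 TPM.

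On the postsynaptic side, all 7 neuroligin regulators and scaffolds were detected. Dlg4 (PSD-95), the scaffold of excitatory synapses, was at 420 ± 24.6 TPM, while Mdga2, which blocks neuroligin from neurexin, was at 22.7 ± 2.33 TPM. Its relative Mdga1 differed most between animals on this list, at 27.66 and 21.46 TPM from 4125 and 1902 counts. The log2 ratio from those counts was -0.86 (-0.94 to -0.78), short of 2-fold. The list of LRRTM proteoglycan partners holds proteoglycans and receptor phosphatases, and 7 of 7 were detected. The phosphatases Ptprs at 324 ± 0.431 TPM and Ptprd at 92.6 ± 3.45 TPM led, with the glypican Gpc5 lowest at 18.4 ± 0.424 TPM. Other postsynaptic organisers were detected for 17 of 17, from Lrrc4b at 142 ± 3.77 TPM and Lrfn5 at 50.1 ± 1.05 TPM down to Il1rapl1 at 10.1 ± 0.304 TPM. The median of that list, 25.3 TPM, lay under the median of 51.7 TPM of the 9 genes.

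Splicing regulators and proteases completed the set. Khdrbs3, an RNA-binding protein known to promote skipping of the splice site 4 exon, was at 194.14 and 143.02 TPM, with a log2 ratio of -0.26 (-0.33 to -0.19). Its relative Khdrbs2 was at 6.21 ± 0.474 TPM and Ptbp2, a neuronal repressor of exons, at 59.3 ± 3.12 TPM. Beside the Khdrbs3 difference, inclusion of the splice site 4 exon was 79.3% and 79.6% in Nrxn2 and 78.5% and 78.6% in Nrxn3, and its relation to Khdrbs3 was not tested. The proteases known to shed these proteins were detected for 3 of 4, with Adam10 leading at 35.9 ± 2.58 TPM and Mmp9 lowest at 0.635 ± 0.106 TPM.

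**Figure D5:**
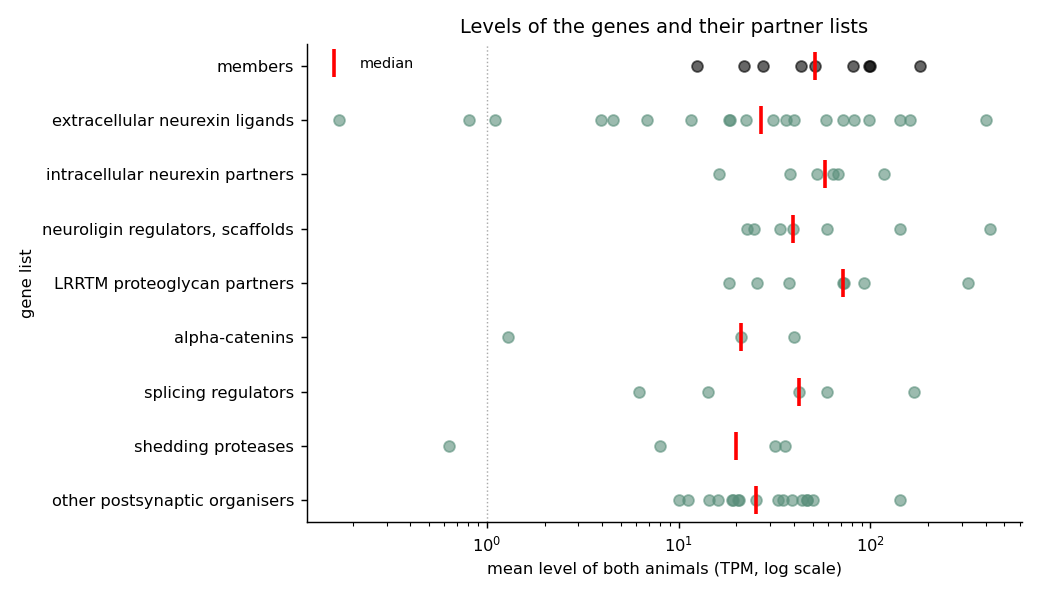
Mean level of both animals in TPM, on a log axis, for the 9 genes (black) and the genes of 8 partner lists (green), with each median in red and a dotted line at 1 TPM. The 9 genes lie between 12.4 and 182 TPM, within the range of the partners.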

How the data were processed

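Total RNA of 2 libraries, 1 per animal, was analysed from tables that, per the file notes, use mm10 and GENCODE M21. Expected counts, in the layout of RSEM per the file headers, were deposited without normalisation and were rounded to whole numbers here. TPM was deposited by the authors after length normalisation. FPKM was deposited by the authors and used for an alternative. Estimated counts and TPM of a second transcript table, in the layout of kallisto per the file headers, were deposited per transcript and made from 1 FASTQ file of each library. The posterior SD of counts was deposited as a signal in counts and reflects read assignment alone. The sources used here do not give the aligner, the tool versions or the strand setting. The genome reference is C57BL/6J, and the effect of CAST/EiJ alleles on counting was not tested.

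Levels are mean TPM ± SD. Ratios used TMM scaling in edgeR 4.0.16 under R 4.3.3 over all annotated genes, a prior count of 2 and exact Clopper-Pearson 95% intervals, which cover counting error only. Effective library sizes were 34038040 and 28448001. A gap between genes is stated where it was wider than the SD of either gene and pointed the same way in each animal. Since 1 group of 2 was measured, no p-value was computed. The scripts were tested on simulated data. Alternatives were DESeq2 1.42.0 size factors, spike-in and total scaling, other filters, FPKM, the second transcript table and leaving out each replicate. Sequences came from GENCODE M21 transcripts and RefSeq.

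The members, gene lists and rules were chosen with earlier results of these data known. All 9 genes are named, with the top 2 genes and the bottom gene by mean TPM in every partner list, all alpha-catenins, and transcripts with at least 10% of a gene's TPM in either table. Mdga1, some marker genes and some low transcripts are named beside a result after their values were seen. Other transcripts and list members are given by counts. Some items that these rules take in are not reported here.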

Additional observations from a re-analysis of the deposited data

How the results depend on the processing

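The order of the 9 genes was unchanged with FPKM, a nuclear protein-coding total, the second transcript table and without replicate 1, and without replicate 2 Lrrtm2 stood above Lrrtm4. The median level of 51.7 TPM became 104 when TPM was shared among nuclear protein-coding genes and 44.9 in the second transcript table. With spike-in scaling the log2 ratio turned to -0.07 for Nrxn2, -0.07 for Nlgn1 and -0.05 for Nlgn2, while Nrxn3 at -0.02 no longer excluded a ratio of 1 and Nlgn3 at -0.28 did, and for Lrrtm1 the second table gave -0.08 with an interval that held 1. The count of genes differing at least 2-fold went from 159 (85 higher) to 748 (464 higher) at a mean count of at least 10, and spike-in scaling gave 214, of which 46 (21.5%) were higher. The leading transcript's share, a median of 47.6%, was 40.9% in the second table and 63.4% by counts. In the second table the long class was 24.8% and the short class 33.1% of Nrxn2, the long class 31.1% of Nrxn3, and the splice site 4 exon was at 78.5% in Nrxn2 and 79.7% in Nrxn3. The neuroligin inserts were at 48.4% in Nlgn1, 90.5% in Nlgn2, and 6.61% and 60.0% in the Nlgn3 cassettes there. The cause of these differences was not tested, except that fewer entries share the total in the nuclear setting and that a lower minimum adds genes. No paired analysis was possible because the 2 libraries form 1 group. With 2 animals, an SD has 1 degree of freedom, and depth limits short and rare transcripts most.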
